A study of Mus musculus with 3 samples.

Results

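S100 genes encode small calcium-binding proteins of the EF-hand family, and 7 of them were followed across the cell classes of a mouse tumour: S100a8, S100a9, S100a4, S100a6, S100a10, S100a11 and S100a13. They were taken by gene symbol from the 55357 genes of the deposited matrices. S100a8 and S100a9 are treated as the myeloid alarmins, and the other 5 as the broadly held members. The measurements came from dissociated tumours of 4T1, a mouse mammary carcinoma line, read cell by cell in droplets from the 3′ ends of transcripts.

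The sgCPT1A library came from tumours of 4T1-sgCPT1A cells, whose genotype is given as a CPT1A knockdown. The sgVC library came from tumours of 4T1-sgVC cells, whose genotype is given as WT. Both groups were female mice of 8 to 10 weeks, and the tumour-bearing animals were housed for 8 days. The sources used here do not give the strain, the number of animals per library or the number of clones behind each line. Cpt1a encodes the enzyme that admits fatty acids to mitochondria, and the comparison addresses which cells a tumour holds once its own cancer cells carry the guide against it. Each group had 1 library with counts, so no test was made, and all intervals below are 95% intervals that cover counting error only. An additional sgCPT1A sample is not analysed here by itself, and it is not known whether its reads entered the sgCPT1A counts.

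S100A8 and S100A9 form the heterodimer calprotectin, a major cytosolic protein of neutrophils that is released on activation and engages Toll-like receptor 4 and the receptor for advanced glycation end products. The other members act mostly inside the cell through partner proteins. S100A10 binds annexin A2 and helps to present plasminogen at the cell surface, S100A11 binds annexin A1, S100A4 binds non-muscle myosin, S100A6 binds the calcyclin-binding protein Cacybp, and S100A13 takes part in the non-classical export of fibroblast growth factor 1 and interleukin 1 alpha.

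All 7 genes lie on chromosome 3 of the GRCm38 build. S100a13 (90514435 to 90524581), S100a4 (90603771 to 90606045), S100a6 (90612882 to 90624181) and S100a8 (90668978 to 90670035) are on the plus strand, and S100a9 (90692632 to 90695721) is on the minus strand. S100a8 and S100a9 therefore face each other with 22.6 kb between their ends. S100a11 (93520488 to 93526287) and S100a10 (93555080 to 93564643) form a separate pair on the plus strand, 28.8 kb apart.

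Promoter windows of 300 bases, 250 before and 50 after the RefSeq start on GRCm38.p6, were matched for 6 members. 4 are shown because the levels below turn on them: both alarmins, S100a11, which neutrophil-like cells also carried, and S100a4, which had few UMIs in them. Capitals mark the letters searched on both strands: TTGCNNAA for C/EBP factors, TGANTCA for AP-1, GAGGAA for ETS factors such as PU.1 (TTCCTC when read on the other strand) and TATAAA for a TATA box.
S100a8 (chr3:90668821-90669120, plus strand): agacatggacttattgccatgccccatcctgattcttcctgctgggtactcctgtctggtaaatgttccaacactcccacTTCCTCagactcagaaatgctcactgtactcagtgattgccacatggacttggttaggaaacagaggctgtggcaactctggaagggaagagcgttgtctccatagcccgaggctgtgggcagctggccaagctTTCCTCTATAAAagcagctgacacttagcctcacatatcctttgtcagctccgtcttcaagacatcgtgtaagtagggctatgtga
S100a9 (chr3:90695672-90695971, minus strand): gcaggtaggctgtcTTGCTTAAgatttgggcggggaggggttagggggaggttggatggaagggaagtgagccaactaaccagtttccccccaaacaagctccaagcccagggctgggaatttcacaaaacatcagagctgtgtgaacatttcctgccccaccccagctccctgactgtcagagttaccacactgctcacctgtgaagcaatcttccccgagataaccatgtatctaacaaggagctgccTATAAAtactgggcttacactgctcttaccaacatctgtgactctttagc
S100a11 (chr3:93520246-93520545, plus strand): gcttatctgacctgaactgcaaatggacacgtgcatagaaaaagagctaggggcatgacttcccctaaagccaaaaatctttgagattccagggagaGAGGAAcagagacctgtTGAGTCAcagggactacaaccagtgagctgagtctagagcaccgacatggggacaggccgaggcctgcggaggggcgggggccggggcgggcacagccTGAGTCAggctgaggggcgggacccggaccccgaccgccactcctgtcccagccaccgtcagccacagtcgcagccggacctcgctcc
S100a4 (chr3:90603520-90603819, plus strand): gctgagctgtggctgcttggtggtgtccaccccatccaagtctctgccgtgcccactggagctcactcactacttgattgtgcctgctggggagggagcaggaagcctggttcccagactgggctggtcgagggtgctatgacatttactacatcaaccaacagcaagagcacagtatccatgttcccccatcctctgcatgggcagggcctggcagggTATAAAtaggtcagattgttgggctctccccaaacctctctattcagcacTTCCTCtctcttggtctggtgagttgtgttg
The S100a8 window held GAGGAA at bases 81 to 86 and 215 to 220, the second directly followed by TATAAA at bases 221 to 226. S100a9 held TTGCNNAA at bases 15 to 22 and TATAAA at bases 251 to 256, which is at the annotated start itself. S100a11 held TGANTCA at bases 115 to 121 and 213 to 219 and GAGGAA at bases 98 to 103, and had no TATAAA. S100a4 held TATAAA at bases 220 to 225 and GAGGAA at bases 270 to 275. Of all 32851 RefSeq promoter windows of this length, 10.8% held TTGCNNAA, 7.81% TGANTCA, 28.3% GAGGAA and 13.6% TATAAA. These matches describe letters and are not evidence of binding. The S100a6 and S100a13 windows held none of the 4 motifs.

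The sgCPT1A library had 7198 barcodes and 35557125 UMIs (unique molecular identifiers, each standing for 1 captured transcript), and the sgVC library had 9890 barcodes and 155948212 UMIs, with 18 barcodes found in both. After filtering, 6743 sgCPT1A and 9319 sgVC cells formed 23 clusters. The clusters were built without S100 genes and named from marker genes, so the classes do not rest on the members. Neutrophil-like cells made up 76.0% of sgCPT1A cells (5124 cells) and 19.3% of sgVC cells (1794 cells), and all 12 neutrophil markers had UMIs in both. Tumour-like cells were 10 in sgCPT1A and 4458 in sgVC, so they were described in sgVC only. In the 10 cells Cpt1a had 1 UMI, and in the 4458 it had 2104 UMIs, or 17.3 CPM. A 3′ tag need not cover the stretch a guide alters, so these counts check neither the label nor the depletion.

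Levels are UMIs summed over the cells of a class in a library, as CPM, the counts scaled to a fixed total of 1000000 UMIs of that class. Since 3′ tags differ in efficiency between genes, a level is compared across classes and libraries and not between genes.

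The alarmins were by far highest in neutrophil-like cells of both libraries. S100a8 stood there at 13990 CPM in sgCPT1A, with the next class, monocyte/macrophage-like cells, at 649 CPM. In sgVC it stood at 19482 CPM, with basophil or mast-like cells next at 814 CPM on 39 cells. Of those 39 cells, 3 held 98.1% of the alarmin UMIs of their class. S100a9 stood in neutrophil-like cells at 33063 CPM in sgCPT1A and 47293 CPM in sgVC. That was 24.5 and 27.5 times the next class, which was T-like in sgCPT1A and basophil or mast-like in sgVC. These cells gave 96.9% of all S100a8 UMIs and 97.1% of all S100a9 UMIs in sgCPT1A, and 81.4% and 93.9% in sgVC. Nearly every such cell carried them: 90.6% of sgCPT1A and 89.5% of sgVC neutrophil-like cells had an S100a8 UMI, and 96.1% and 95.9% had an S100a9 UMI. Cells differed widely: the median was 6.74 S100a8 UMIs per 1000 UMIs of the cell in sgCPT1A, with a 10th to 90th percentile range of 0.285 to 33.6, and 10.4 in sgVC, with a range of 0 to 42.0.

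**Figure D1:**
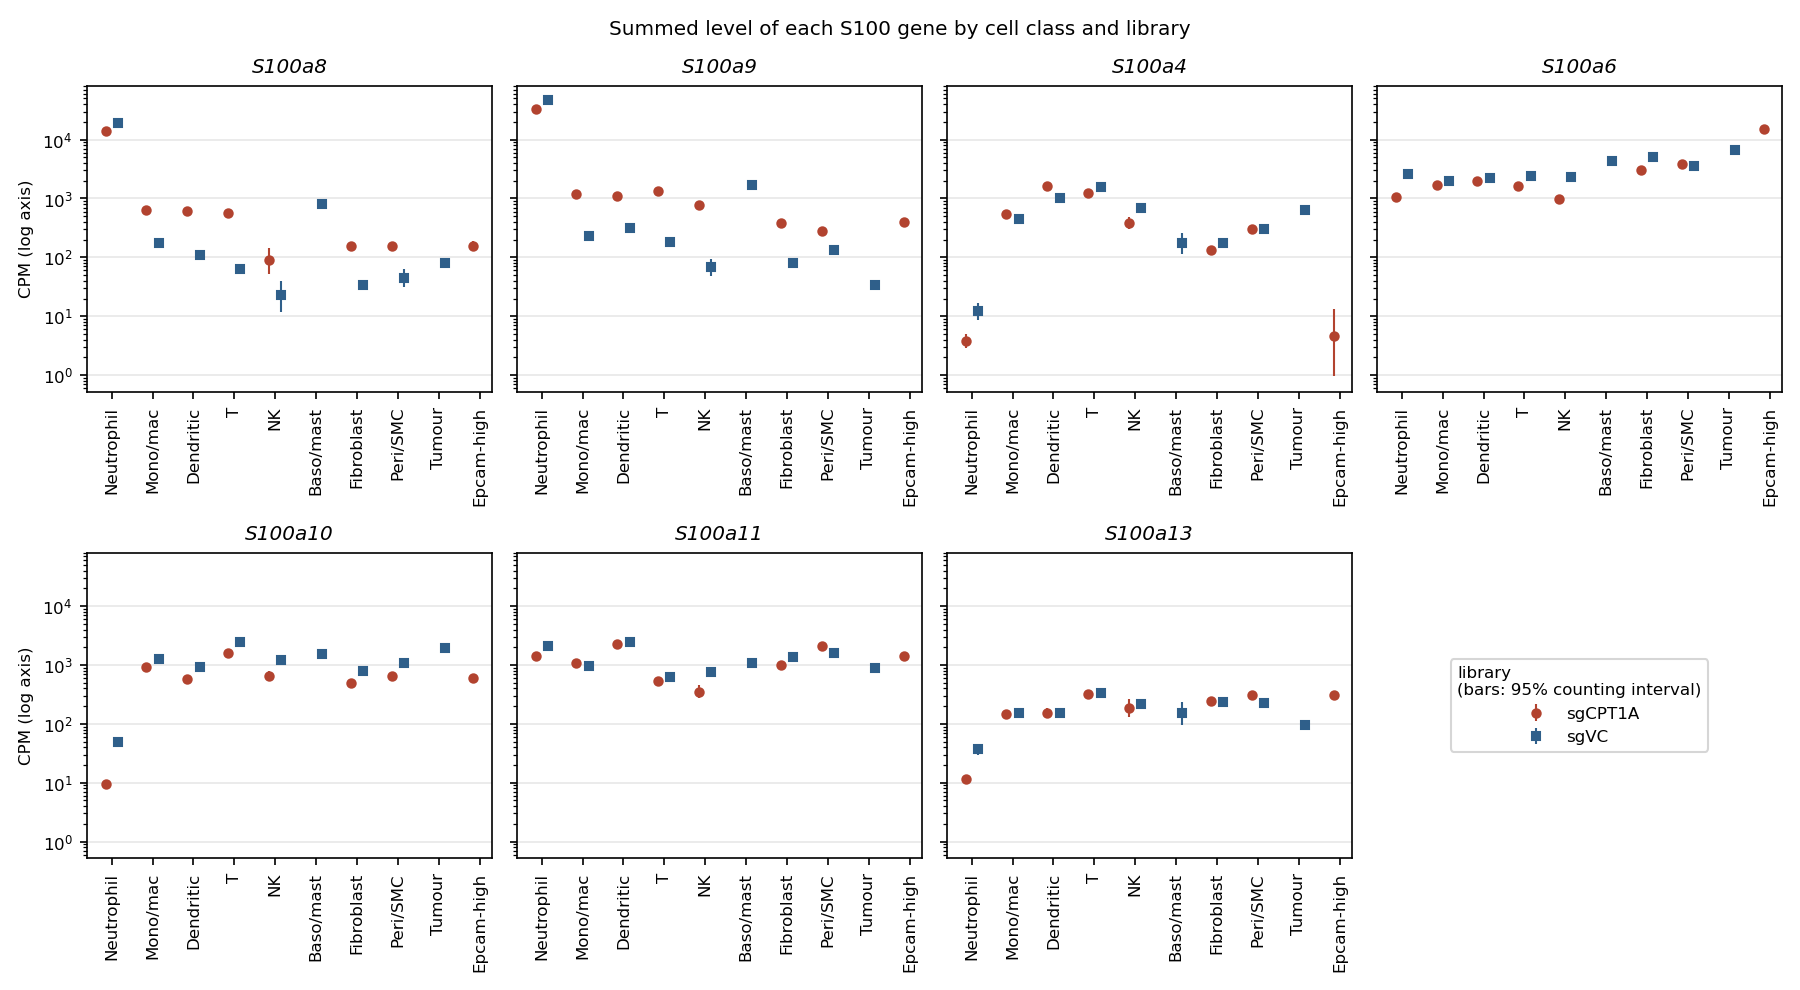
Level of each S100 gene (CPM, log axis) by cell class in the sgCPT1A library (circles) and the sgVC library (squares), with bars for the 95% counting interval; class sums of fewer than 20 cells are not drawn. S100a8 and S100a9 peak in neutrophil-like cells above 10000 CPM, while S100a4, S100a10 and S100a13 have their lowest point there.

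Within neutrophil-like cells both alarmins were lower in the sgCPT1A library. For S100a8 the log2 ratio of sgCPT1A over sgVC was -0.48 (-0.49 to -0.46), and for S100a9 it was -0.52 (-0.53 to -0.51). The median gene of this class also stood lower, at a log2 ratio of -0.30, and relative to it the alarmins were at -0.18 and -0.21. The libraries held different kinds of neutrophil-like cells. Most sgCPT1A cells lay in clusters 0, 3 and 4 (2268, 1377 and 1118 cells), and 1536 of the 1794 sgVC cells lay in cluster 1. When each library was clustered alone, the mean log2 ratio of both alarmins was -0.07, against -0.50 in the joint clustering. In that setting 39 further sgVC cells with a median of 26440 UMIs, 32 of them tumour-like in the joint clustering, entered the class and gave 26.3% of its sgVC UMIs.

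The alarmin level differed more between neutrophil-like clusters than between the libraries within a cluster. Cluster 22, led by the granule genes Ngp, Camp and Ltf of immature neutrophils, had the highest levels: in its 25 sgVC cells S100a8 stood at 75933 CPM and S100a9 at 125740 CPM, and only 2 sgCPT1A cells lay in it. Cluster 4, led by Lrg1, the chemokine receptor Cxcr2 and the decoy receptor Il1r2, followed with S100a8 at 19739 CPM in sgCPT1A and 20426 CPM in sgVC. Cluster 3, led by interferon-induced genes such as Rsad2 and Ifit1, was lowest, with S100a8 at 6604 CPM in sgCPT1A and 9043 CPM in sgVC. S100a9 kept that order, at 49802 CPM in sgCPT1A and 51078 CPM in sgVC for cluster 4, and at 16106 CPM and 23117 CPM for cluster 3. In cluster 0, led by the cytokine genes Il1a and Ccl3, the difference between libraries had the other sign: S100a8 was at 15068 CPM in sgCPT1A and 10015 CPM in sgVC, a log2 ratio of 0.59 (0.53 to 0.65). In cluster 1, led by Retnlg and G0s2, the S100a8 ratio was -0.15 (-0.18 to -0.12), and in cluster 4 it was -0.05 (-0.12 to 0.02). Both alarmins were among the leading genes of clusters 1 and 4, and S100a8 among those of cluster 22.

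**Figure D2:**
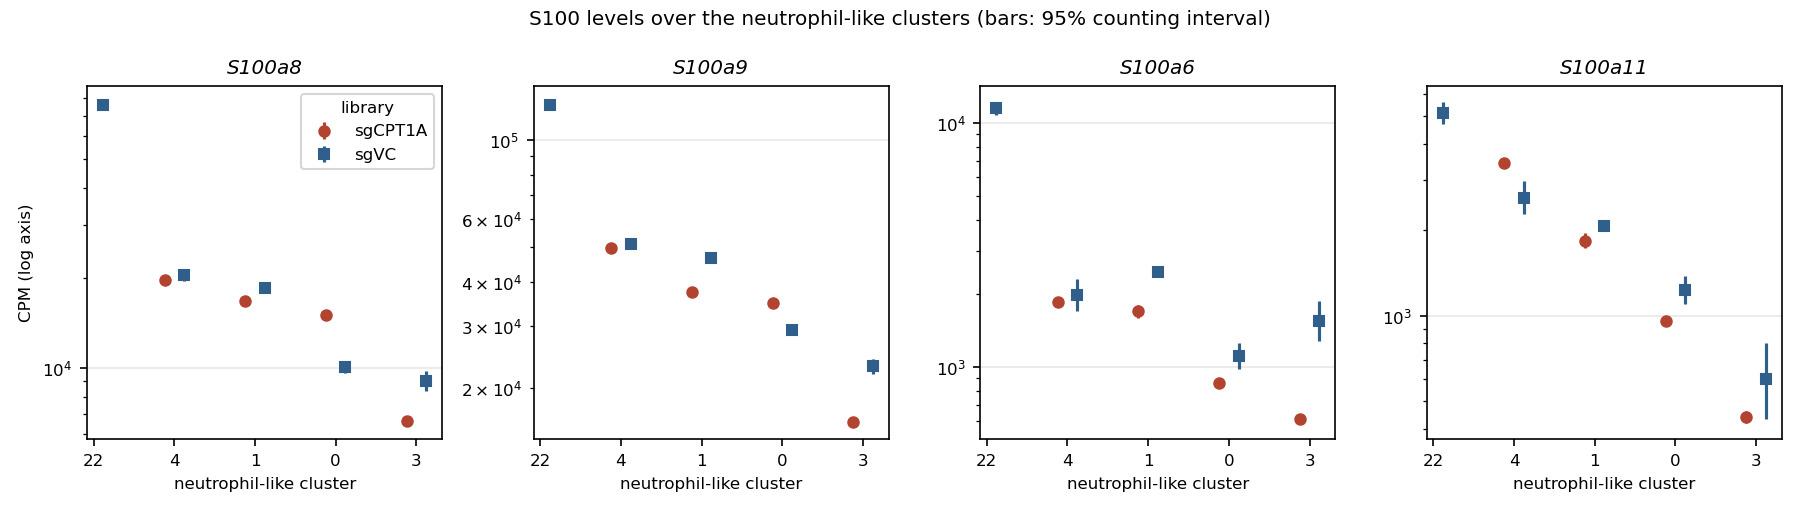
Levels of S100a8, S100a9, S100a6 and S100a11 (CPM, log axes) in the 5 neutrophil-like clusters, ordered by S100a8, for sgCPT1A (circles) and sgVC (squares) with 95% counting intervals; cluster 22 is drawn for sgVC only. S100a8, S100a9 and S100a11 are lowest in cluster 3 in both libraries, and S100a8 in sgCPT1A runs between 6604 CPM there and 19739 CPM in cluster 4.

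Among the broadly held members, S100a11 and S100a6 had most of the UMIs in neutrophil-like cells. S100a11 stood at 1415 CPM in sgCPT1A and 2064 CPM in sgVC, with a UMI in 68.0% and 77.4% of cells, and its log2 ratio was -0.54 (-0.59 to -0.50). It was lowest in cluster 3 (440.2 CPM in sgCPT1A, 597 CPM in sgVC) and, outside cluster 22, highest in cluster 4 (3435 CPM in sgCPT1A, 2594 CPM in sgVC). S100a6 stood at 1064 CPM in sgCPT1A and 2599 CPM in sgVC, a log2 ratio of -1.29 (-1.33 to -1.25). In cluster 22 of sgVC it reached 11463 CPM, and in cluster 1 alone, where the log2 ratio was -0.54, it was at 1689.8 CPM in sgCPT1A and 2455 CPM in sgVC.

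S100a4 and S100a10 were scarce in neutrophil-like cells. S100a4 had 52 UMIs in sgCPT1A (3.80 CPM) and 34 in sgVC (12.2 CPM), and S100a10 had 128 (9.34 CPM) and 137 (49.3 CPM). Relative to the summed library, S100a4 was at 1.51% in sgCPT1A and 2.01% in sgVC, and S100a10 at 2.09% and 2.70%. To show what other cells' RNA gives there, 5 genes each of fibroblasts, tumour cells and T cells were read the same way. The fibroblast genes were at 0.720 to 1.12% of their library level in sgCPT1A and 1.74 to 4.24% in sgVC, the tumour genes at 1.49 to 39.5% and 0.982 to 12.3% (Spint2 highest in both), and the T-cell genes at 1.12 to 10.3% and 2.58 to 65.7% (Cd3d highest in both). S100a4 and S100a10 lay inside the whole range of the 15 genes in both libraries, and above all 5 fibroblast genes in sgCPT1A. How much of the S100a4 ratio (-1.69) and the S100a10 ratio (-2.40) is free RNA was not tested. S100a13, at 11.7 CPM in sgCPT1A and 36.7 CPM in sgVC, was at 7.66% and 32.8% of its library level. By the rule of a 1.5-fold difference, 4 of 7 members (S100a4, S100a6, S100a10 and S100a13) were lower in sgCPT1A neutrophil-like cells, where 35.8% of all 9189 genes with at least 20 UMIs were lower. None was higher, against 17.6% of all genes. Within clusters the S100a6 ratio was inside 1.5-fold in clusters 0, 1 and 4, at -0.37, -0.54 and -0.10, and was -1.33 in cluster 3. The S100a10 ratio was -2.08, -1.71, -2.48 and -2.37 in clusters 0, 1, 3 and 4, with intervals below 0. For S100a4 and S100a13 the interval included 0 in each of these clusters where both libraries had UMIs.

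Outside neutrophil-like cells the direction of the alarmins was the opposite, and they were higher in the sgCPT1A library in each of the other 5 classes compared. In T-like cells S100a8 was at 572 CPM in sgCPT1A and 62.6 CPM in sgVC, a log2 ratio of 3.19 (2.99 to 3.4), and S100a9 at 1348 CPM and 179 CPM, a ratio of 2.91 (2.79 to 3.03). In fibroblast-like cells S100a8 was at 157 CPM in sgCPT1A and 33.6 CPM in sgVC, a ratio of 2.22 (2.01 to 2.44), and the S100a9 ratio was 2.30. T-like and fibroblast-like cells were taken as classes without alarmins of their own, and their counts are used below to bound free RNA. That premise was not tested, and any alarmin these cells make would raise the bound. Monocyte/macrophage-like cells, which can express both genes, had ratios of 1.91 for S100a8 and 2.33 for S100a9. With free RNA subtracted at the level T-like cells allow, the S100a8 log2 ratio in monocyte/macrophage-like cells was -0.53 and the S100a8 log2 ratio in dendritic-like cells was 0.03. T-like cells with at least 20 alarmin UMIs held 92.1% of the T-like alarmin UMIs in sgCPT1A and 86.2% in sgVC. Without such cells in its own class, the monocyte/macrophage-like S100a8 ratio was 2.02 (1.80 to 2.24). With no free RNA subtracted and all cells kept, the ratios of S100a8 and S100a9 were 2.52 and 1.83 in dendritic-like cells and 1.79 and 1.07 in pericyte or smooth muscle-like cells. The 12 neutrophil markers moved with the alarmins in most of these classes: their summed level was 767 CPM in sgCPT1A and 119 CPM in sgVC for T-like cells, 2483 CPM and 775 CPM for monocyte/macrophage-like, 266 CPM and 116 CPM for fibroblast-like, 699 CPM and 318 CPM for dendritic-like, and 417 CPM and 423 CPM for pericyte or smooth muscle-like cells. Between 10 and 12 of the 12 had UMIs in each of these class sums, and their part in the alarmin ratios was not tested.

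**Figure D3:**
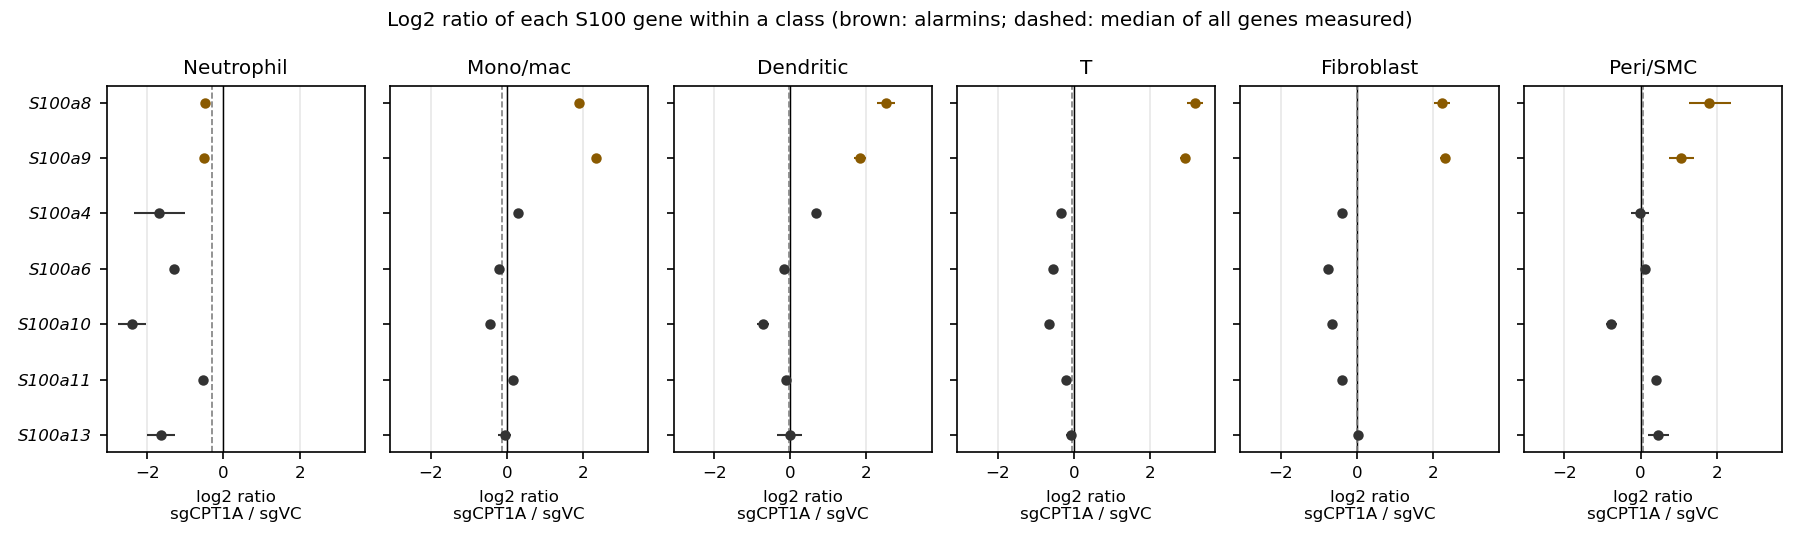
Log2 ratio of sgCPT1A over sgVC for each S100 gene in the 6 classes compared, with 95% counting intervals; the dashed line is the median of all genes measured in the class. The alarmins (brown) lie at or below -0.48 in neutrophil-like cells and at or above 1.07 in the other 5 classes, and S100a10 lies left of 0 in all 6.

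In the other 5 classes compared most alarmin UMIs sat in a few cells. In T-like cells 34 of 552 sgCPT1A cells (6.16%) had at least 20 alarmin UMIs and held 92.1% of the class's alarmin UMIs, and 7 of 855 sgVC cells (0.819%) held 86.2%. In fibroblast-like cells 37 of 513 sgCPT1A cells (7.21%) held 90.8%, and 6 of 400 sgVC cells (1.5%) held 86.1%. Those cells also carried other neutrophil RNA: G0s2, a neutrophil marker, had a UMI in 97.1% of the 34 and 16.8% of the other sgCPT1A T-like cells, and in 100% of the 7 and 2.59% of the other sgVC T-like cells. In neutrophil-like cells 72.2% of sgCPT1A and 74.0% of sgVC cells had at least 20 alarmin UMIs. The doublet caller marked 1 cell in sgCPT1A, too few to have worked, and 291 in sgVC, so doublets were removed in sgVC only, and their part in this difference was not tested. With the called doublets kept in sgVC, the S100a8 log2 ratio in T-like cells was 2.08. By T-like cluster it was 5.37 in cluster 7, which held 436 sgCPT1A and 508 sgVC cells, and 1.37 and 0.99 in clusters 13 and 14.

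Without cells of at least 20 alarmin UMIs, the log2 ratios were 2.01 (1.45 to 2.60) for S100a8 and 2.40 (2.04 to 2.77) for S100a9 in T-like cells. They were 1.57 and 1.90 in fibroblast-like cells and 2.02 and 2.61 in monocyte/macrophage-like cells, with intervals above 0. In dendritic-like cells S100a9 had 34 sgCPT1A and 16 sgVC UMIs left and a ratio of 2.65 (1.75 to 3.61), and S100a8 had 9 in each, too few for the floor of 20. In pericyte or smooth muscle-like cells the S100a8 ratio was 0.17 (-0.67 to 1.05) without them, against 1.79 with them, where 4 sgCPT1A cells and 1 sgVC cell were left out, and the S100a9 ratio was 1.46 (0.66 to 2.33), on 16 sgVC UMIs.

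**Figure D4:**
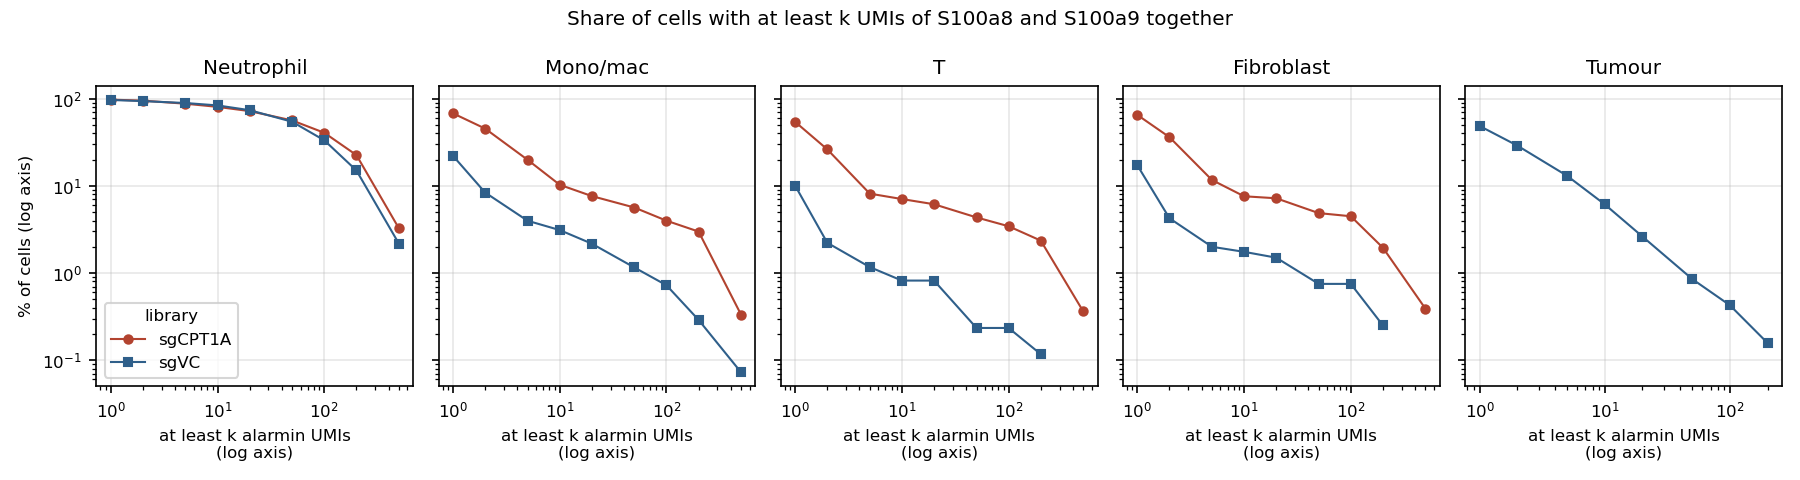
Share of cells (%, log axis) with at least k UMIs of S100a8 and S100a9 together (k on a log axis) in 5 classes, for sgCPT1A (circles) and sgVC (squares); tumour-like cells are drawn for sgVC only. The neutrophil-like curves stay above 70% up to 20 UMIs, while the T-like curves are at 6.16% in sgCPT1A and 0.819% in sgVC by then.

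The alarmin level of a class taken to lack it, divided by the level in the summed library, bounds the share of that class's UMIs that free RNA of the library's mean composition could give. From S100a8 the bound was 10.1% (9.63 to 10.5%) in sgCPT1A and 13.8% (12 to 15.8%) in sgVC for T-like cells, and 2.76% and 7.41% for fibroblast-like cells. From S100a9 it was 10.1% in sgCPT1A and 18.8% in sgVC for T-like cells, and 2.91% and 8.29% for fibroblast-like cells. Leaving out cells with at least 20 alarmin UMIs lowered the S100a8 bound to 0.730% in sgCPT1A and 2.27% in sgVC for T-like cells, and to 0.302% and 1.27% for fibroblast-like cells. Most of the bound thus came from few cells with many alarmin UMIs.

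The share of cells with an alarmin UMI gives the same order but rests on depth. An S100a8 UMI was found in 24.5% of sgCPT1A T-like cells (median 4916 UMIs per cell) and 4.21% of sgVC T-like cells (median 2873 UMIs). In fibroblast-like cells it was found in 34.1% in sgCPT1A (median 24739 UMIs) and 8.00% in sgVC (median 14586 UMIs). After each cell was thinned to 1000 UMIs, the shares were 11% in sgCPT1A and 1.79% in sgVC for T-like cells, and 6.53% and 1.79% for fibroblast-like cells. Thinning left out 34 sgCPT1A and 75 sgVC T-like cells, and 8 sgCPT1A and 9 sgVC fibroblast-like cells, as shallower. The corresponding shares of neutrophil-like cells were 85.6% in sgCPT1A and 88.9% in sgVC, with 461 and 331 cells left out.

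In tumour-like cells of sgVC the alarmins parted. S100a8 had 9923 UMIs there (81.8 CPM) and S100a9 had 4066 UMIs (33.5 CPM), so that there were 2.44 S100a8 UMIs per S100a9 UMI (2.35 to 2.53). In neutrophil-like cells the same quotient was 0.423 (0.421 to 0.425) in sgCPT1A and 0.412 (0.408 to 0.416) in sgVC, and in T-like cells it was 0.424 and 0.349. Tumour-like cells had 5.92 times the S100a8 UMIs that their S100a9 UMIs give at the sgVC neutrophil quotient, and 14.9% of all sgVC S100a8 UMIs lay in them. Where this S100a8 came from was not tested.

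Tumour-like cells differed from the 5 classes above in that fewer of their alarmin UMIs sat in alarmin-rich cells. Those with at least 20 held 50.7% of these UMIs. In the 5 classes the same share was 73.3% to 97.0% in sgVC and 80.3% to 96.7% in sgCPT1A. An alarmin UMI was found in 48.8% of tumour-like cells. In the 5 classes it was found in 10.1% to 22.1% of sgVC cells and 50.8% to 68.1% of sgCPT1A cells, and these shares rest on depth. Of 3884 tumour-like cells without an S100a9 UMI, 41.2% had an S100a8 UMI (39.7 to 42.8%; median of all tumour-like cells 23631 UMIs). The same share was 6.50% in sgVC fibroblast-like cells (median of the class 14586 UMIs) and 3.15% in sgVC T-like cells (median 2873 UMIs). In sgVC monocyte/macrophage-like cells it was 11.9%. Over the 5 classes of sgCPT1A it ran from 13.5% in dendritic-like to 32.4% in monocyte/macrophage-like cells, with 24.3% in fibroblast-like cells. Without tumour-like cells of at least 20 alarmin UMIs, the quotient was 8.36 (7.74 to 9.03) and S100a8 was at 53.1 CPM, against 5.76 CPM in fibroblast-like and 10.3 CPM in T-like cells treated alike. After thinning to 1000 UMIs, 6.16% of tumour-like cells had an S100a8 UMI and 1.74% an S100a9 UMI, with 45 cells left out. By cluster the quotient was 3.01 in cluster 5 (replication genes such as Mcm6), 2.63 in cluster 6 (mitotic genes such as Top2a), 1.93 in cluster 2 and 0.923 in cluster 11, led by Ndrg1 and Slc2a1. The share with an S100a8 UMI was 56.3% in cluster 5, 59.5% in cluster 6, 30.2% in cluster 2 and 19.4% in cluster 11, and the median depth ran alongside, at 28792, 35861, 19338 and 10542 UMIs; the part of depth in that order was not tested. The 10 sgCPT1A tumour-like cells had 105 S100a8 and 33 S100a9 UMIs, 94.9% of them in 2 cells.

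Monocyte/macrophage-like cells also held more S100a8 per S100a9 than neutrophil-like cells, at 0.554 (0.519 to 0.592) in sgCPT1A and 0.746 (0.699 to 0.795) in sgVC. Among their cells with fewer than 20 alarmin UMIs the quotient was 1.10 (0.933 to 1.30) in sgCPT1A and 1.66 (1.41 to 1.97) in sgVC. With all cells kept, 2 other classes of sgCPT1A had a like quotient. It was 0.554 (0.493 to 0.622) in dendritic-like and 0.556 (0.465 to 0.663) in pericyte or smooth muscle-like cells. In sgVC both of these classes stood at 0.34. Cluster 22 of sgVC stood at 0.604 (0.586 to 0.622). NK-like cells of sgCPT1A had the lowest quotient, 0.116, on 17 S100a8 UMIs, and 1 of their 32 cells held 92.6% of the alarmin UMIs.

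**Figure D5:**
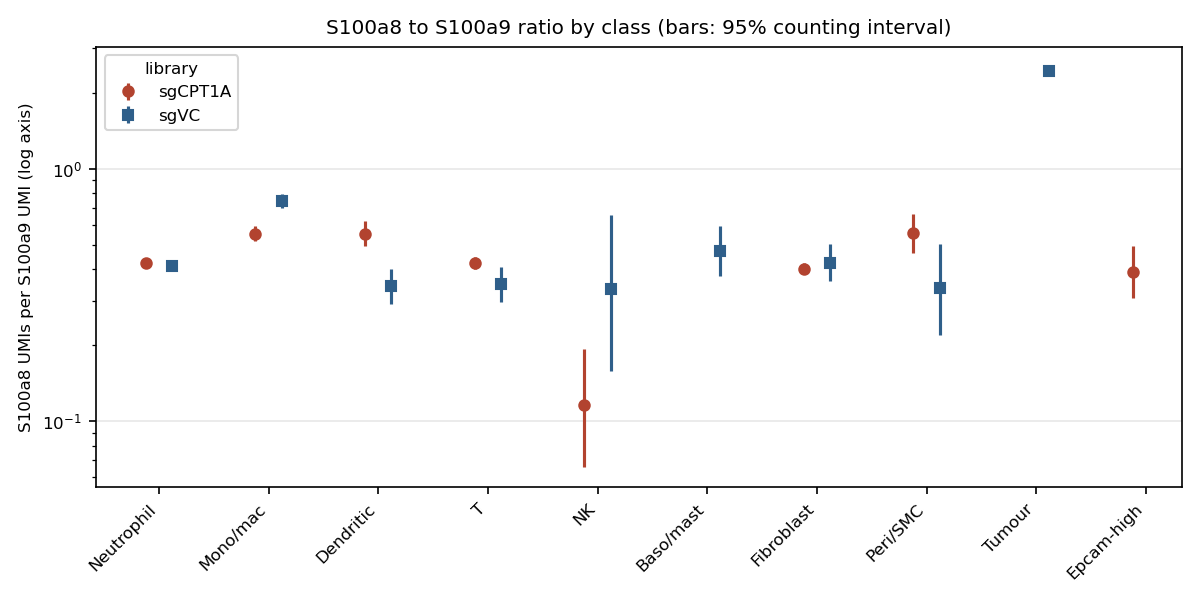
S100a8 UMIs per S100a9 UMI (log axis) by cell class for sgCPT1A (circles) and sgVC (squares) with 95% counting intervals; class sums of fewer than 20 cells are not drawn. Tumour-like cells of sgVC stand at 2.44, and every other point lies below 1.

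The broadly held members were spread over the classes in orders of their own. S100a10 was highest in T-like cells of both libraries, at 1582 CPM in sgCPT1A and 2467 CPM in sgVC, followed in sgVC by tumour-like cells at 1968 CPM. It was lower in sgCPT1A in all 6 classes. Outside neutrophil-like cells its log2 ratio was -0.77 (-0.92 to -0.63) in pericyte or smooth muscle-like cells, -0.71 (-0.87 to -0.56) in dendritic-like cells, -0.67 (-0.72 to -0.61) in fibroblast-like cells, -0.64 (-0.69 to -0.59) in T-like cells and -0.45 (-0.52 to -0.39) in monocyte/macrophage-like cells. Within the monocyte/macrophage-like clusters the S100a10 ratio was nearer 0 than in the class. It was -0.14 (-0.23 to -0.04) in cluster 8, where the median gene stood at -0.15. In cluster 9 it was -0.22 (-0.32 to -0.12), where the median gene stood at -0.12. Tumour-like cells gave 89.2% of all sgVC S100a10 UMIs, and the composition of the free RNA itself was not measured. At each class's own S100a8 bound, free RNA could give at most 2.46% of the sgCPT1A and 17.0% of the sgVC level in fibroblast-like cells. For T-like cells it could give 2.85% and 10.2%, and for monocyte/macrophage-like cells 5.48% and 54.5%. With free RNA subtracted at the T-like bound, the ratios of the 4 classes past 1.5-fold all moved inside that limit: -0.50 in pericyte or smooth muscle-like, -0.38 in dendritic-like, -0.25 in fibroblast-like and -0.53 in T-like cells. The bound used was 10.1% in sgCPT1A and 13.8% in sgVC. Without T-like cells of at least 20 alarmin UMIs it was 0.730% and 2.27%, and subtraction at that lower bound was not tested.

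S100a11, the annexin A1 partner, was highest in dendritic-like cells, at 2249 CPM in sgCPT1A and 2419 CPM in sgVC. Pericyte or smooth muscle-like cells, at 2123 CPM in sgCPT1A, overlapped with them within the counting interval. T-like cells were low, at 545 CPM in sgCPT1A and 629.5 CPM in sgVC. By class its differences between libraries stayed inside 1.5-fold. The log2 ratios were -0.41 in fibroblast-like, -0.21 in T-like, -0.11 in dendritic-like, 0.15 in monocyte/macrophage-like and 0.40 in pericyte or smooth muscle-like cells. Both monocyte/macrophage-like clusters stood higher than their class, at 0.52 (0.43 to 0.61) in cluster 8 and 0.87 (0.75 to 0.99) in cluster 9. Cluster 8 held 87 sgCPT1A and 768 sgVC cells, and cluster 9 held 214 and 614. With cells of at least 1000 UMIs weighted equally, the S100a11 ratio was -0.09 in monocyte/macrophage-like and -0.08 in pericyte or smooth muscle-like cells. The pseudogene S100a11-ps had 7 UMIs in sgCPT1A and 5 in sgVC and could share reads with it.

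S100a6, the Cacybp partner, was highest in epithelial cells. The 30 Epcam-high cells of sgCPT1A held 15270.0 CPM, and tumour-like cells of sgVC held 6696.5 CPM and 91.5% of the library's S100a6 UMIs. Next came pericyte or smooth muscle-like cells in sgCPT1A, at 3856 CPM, and fibroblast-like cells in sgVC. Fibroblast-like cells stood at 3009 CPM in sgCPT1A and 5093 CPM in sgVC, a log2 ratio of -0.76 (-0.78 to -0.74), which both of their clusters shared: 2965 CPM in sgCPT1A and 4736 CPM in sgVC in cluster 10, and 3129.6 CPM and 5308 CPM in cluster 12. In T-like cells the ratio was -0.55 (-0.60 to -0.50), and free RNA could give at most 13.7% of the sgCPT1A and 34.4% of the sgVC level there. In monocyte/macrophage-like cells of sgVC their own bound was 118% of the level, so at that bound S100a6 there cannot be told apart from free RNA. That bound is itself raised by any S100a8 these cells make. At the T-like bound of sgVC, free RNA could give at most 835 CPM of S100a6, against 1963 CPM in monocyte/macrophage-like cells.

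S100a4, the myosin partner, was high in part of the lymphoid and myeloid cells, though not in these alone. It was highest in dendritic-like cells of sgCPT1A (1628.5 CPM, against 1020 CPM in sgVC) and in T-like cells of sgVC (1545 CPM, with 1227 CPM in sgCPT1A). Among T-like clusters it was highest in cluster 13, led by Gzma, Gzmb and Cd8a, at 2324 CPM in sgCPT1A and 2538 CPM in sgVC, and lowest in cluster 14, led by Ctla4 and Tnfrsf4, at 599 CPM and 805 CPM. Among monocyte/macrophage-like clusters it was at 1460 CPM in sgCPT1A and 588 CPM in sgVC in cluster 8, led by Lyz2 and class II genes, and at 104 CPM and 143 CPM in cluster 9, led by Arg1 and Apoe. The 2 clusters differed in direction between libraries, with log2 ratios of 1.31 (1.21 to 1.41) in cluster 8 and -0.46 (-0.74 to -0.18) in cluster 9, and the class as a whole stood at 0.28. Epcam-high cells carried almost none, 3 UMIs in sgCPT1A (4.62 CPM) and 1 UMI in sgVC (5.60 CPM). Tumour-like cells of sgVC stood at 626 CPM, above monocyte/macrophage-like cells of sgVC at 453 CPM. They gave 85.2% of the S100a4 UMIs of sgVC and 82.8% of all its UMIs. In dendritic-like cells the ratio was 0.68 (0.57 to 0.78), and it lay in cluster 15 (2005 CPM in sgCPT1A, 959 CPM in sgVC) and not in cluster 18 (888 CPM and 1135 CPM). That ratio was 0.29 after thinning each cell to 1000 UMIs and 0.27 with each cell weighted equally, both inside the 1.5-fold limit.

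S100a13, which acts in protein export, was lowest in neutrophil-like cells and highest in T-like cells, at 318 CPM in sgCPT1A and 334 CPM in sgVC. Pericyte or smooth muscle-like cells of sgCPT1A, at 309 CPM, overlapped with T-like cells within the counting interval. Its interval included 0 in monocyte/macrophage-like, dendritic-like, T-like and fibroblast-like cells, with log2 ratios between -0.07 and 0.03.

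Counted by class with the 1.5-fold rule, 2 of 7 members were higher and 0 lower in monocyte/macrophage-like cells of sgCPT1A, where 15.1% of all genes were higher and 25.2% lower. In dendritic-like cells 3 were higher (background 15.9%) and 1 lower (19.4%), in T-like cells 2 were higher (13.5%) and 1 lower (14%), in fibroblast-like cells 2 were higher (16%) and 2 lower (13.5%), and in pericyte or smooth muscle-like cells 2 were higher (22.9%) and 1 lower (18.6%). The 2 higher members were S100a8 and S100a9 in every one of these classes, joined by S100a4 in dendritic-like cells. The lower members were S100a10 in 4 of the 5 and S100a6 in fibroblast-like cells. Over the 5 broadly held members the median log2 ratio was -1.65 in neutrophil-like, -0.06 in monocyte/macrophage-like, -0.11 in dendritic-like, -0.33 in T-like, -0.41 in fibroblast-like and 0.12 in pericyte or smooth muscle-like cells. The value for pericyte or smooth muscle-like cells was -0.25 after thinning to 1000 UMIs, and that for monocyte/macrophage-like cells was 0.19 with free RNA subtracted. The median over all genes measured was -0.30, -0.12, -0.04, -0.04, -0.02 and 0.05 in the same classes.

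Receptors and partners were read from lists of genes. Of 6 receptor genes, 5 were measured in neutrophil-like cells, 2 lower and 0 higher, near the shares of 35.8% and 17.6% over all genes of the class. Tlr4, the Toll-like receptor of calprotectin, stood at 113 CPM in sgCPT1A and 136 CPM in sgVC there, a log2 ratio of -0.26 (-0.43 to -0.10). Bsg, which encodes basigin, a calprotectin receptor, was lower in all 6 classes, with ratios of -1.28 in neutrophil-like, -0.73 in pericyte or smooth muscle-like, -0.63 in both dendritic-like and T-like, -0.60 in fibroblast-like and -0.19 in monocyte/macrophage-like cells.

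Of the 6 annexin and membrane partners, 5 were lower and 0 higher in neutrophil-like cells, where 35.8% of all genes were lower and 17.6% higher. Anxa1, the S100A11 partner, was at 63.9 CPM in sgCPT1A and 305 CPM in sgVC, a log2 ratio of -2.25 (-2.39 to -2.12), and Anxa2, the S100A10 partner, at 193 CPM and 449 CPM, a ratio of -1.22 (-1.32 to -1.12). In the other classes the list had 1 higher and 0 lower in monocyte/macrophage-like cells (all genes 15.1% and 25.2%) and in dendritic-like cells (15.9% and 19.4%), where Ahnak, which binds the annexin A2 complex, was at ratios of 0.94 and 1.04. For T-like cells it had 0 higher and 1 lower (13.5% and 14%). It had 0 and 0 among fibroblast-like cells (16% and 13.5%), and 3 higher and 1 lower in pericyte or smooth muscle-like cells (22.9% and 18.6%). Of the 3 cytoskeleton partners, 1 was lower in neutrophil-like cells (all genes 35.8%) and 1 in T-like cells (14%), and 2 were higher in pericyte or smooth muscle-like cells (22.9%), among them Myh9, the myosin that S100A4 binds, at 698 CPM in sgCPT1A and 415 CPM in sgVC.

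Of the 4 calcium and export partners, 3 or 4 were measured per class, and the same pair passed 1.5-fold in each. Over all genes of these classes, 13.5% to 35.8% were lower and 13.5% to 22.9% higher. Cacybp was lower in all 6, with log2 ratios between -1.33 in neutrophil-like and -0.61 in fibroblast-like cells. Il1a, the interleukin whose export involves S100A13, was higher in all 6, at 3710.3 CPM in sgCPT1A and 1426 CPM in sgVC in neutrophil-like cells (1.38) and at 162 CPM and 1.49 CPM in T-like cells (6.76). Il1a was also a leading gene of neutrophil-like clusters 0 and 3, which sgCPT1A mostly held, and the part of neutrophil RNA in its level in other classes was not tested. Of the 4 plasminogen genes, 3 were measured in neutrophil-like cells, 2 higher and 0 lower (all genes 17.6% and 35.8%). In monocyte/macrophage-like cells 3 were measured, 0 higher and 1 lower (15.1% and 25.2%). Plau, the urokinase gene, was at 131 CPM in sgCPT1A and 57.6 CPM in sgVC in neutrophil-like cells (1.19). In monocyte/macrophage-like cells it was at 116 CPM and 299.5 CPM (-1.37). Plaur was at -0.22 in neutrophil-like, 0.01 in monocyte/macrophage-like, 0.74 in dendritic-like and 2.72 in T-like cells. It was at -0.81 in fibroblast-like and -1.39 in pericyte or smooth muscle-like cells. Of the 5 regulators none passed 1.5-fold in neutrophil-like cells, against 35.8% lower and 17.6% higher over all genes, and Cebpb, which drives myeloid genes, was at 5568 CPM in sgCPT1A and 7341 CPM in sgVC (-0.40).

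Among 9 other S100 genes, S100a16 was at 182 CPM in sgCPT1A and 279 CPM in sgVC in fibroblast-like cells, a log2 ratio of -0.62 (-0.71 to -0.52). S100a1 was at 42.2 CPM in sgCPT1A and 67.7 CPM in sgVC in fibroblast-like cells (-0.68) and at 47.8 CPM and 70.5 CPM in monocyte/macrophage-like cells (-0.56). In sgCPT1A, 151 of the 165 UMIs of S100a14 lay in Epcam-high cells, and in sgVC 17 of 175.

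Over the 17 class sums of at least 20 cells, S100a8 and S100a9 ran closely together on the scale of log2(CPM + 10) (Pearson r 0.96), and S100a10 ran against S100a8 (-0.79) and with S100a13 (0.81). The sums share libraries and depth, so these values are descriptions. The genes most like S100a8 were Trem1 (0.97), G0s2 and Wfdc21, and those most like S100a9 were G0s2 (0.98), Stfa2l1 and Hcar2; Trem1, G0s2, Stfa2l1 and Hcar2 are also markers that named the neutrophil-like clusters. S100a4 was nearest to Acot7 (0.92), S100a6 to Plcd3 (0.93), S100a10 to Sptssa (0.98), S100a11 to Mvp (0.82) and S100a13 to Ndufa13 (0.94).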

How the data were processed

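The authors deposited UMI counts (whole numbers for every gene in every barcode) of 1 sgCPT1A and 1 sgVC library, made with Cell Ranger 7.1.0 per the file headers; the submitters' processing notes also name Seurat 4.1.0 and GRCm38, and the sources used here do not say how barcodes were called as cells. Coordinates came from GENCODE M21, promoter windows from RefSeq. Barcodes under 200 genes or over 20% mitochondrial UMIs were dropped, leaving 6743 of 7198 sgCPT1A and, after removal of 291 doublets called by scrublet, 9319 of 9890 sgVC barcodes. In sgCPT1A the caller marked 1 cell, under the 0.5% taken as the least for a working caller, so none was removed there.

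Both libraries were clustered together without S100 genes (10000 UMIs per cell, log1p, 2000 variable genes, 30 components, 15 neighbours, resolution 1) with scanpy 1.11.5 on anndata 0.12.19, using igraph 0.11.9 and leidenalg 0.10.2. Tables and figures used pandas 2.3.3, numpy 2.4.6, scipy 1.17.1, scikit-learn 1.9.0 and matplotlib 3.10.9 in Python 3.11.15. Of 17 marker sets, a cluster was given the class with 3 or more markers that stood 2-fold or more above the median cluster and had a UMI in 10% or more of its cells; 1 cluster, with leading genes of several classes, stayed unnamed. UMIs were summed per class and library and scaled to CPM, in classes with at least 50 cells in both libraries for ratios. Levels have exact Poisson intervals, shares Clopper-Pearson intervals and ratios conditional binomial intervals at 95%. Only the ratio intervals were tried on simulated data, with independent Poisson counts that lack the grouping of UMIs within cells. A gene was called at 1.5-fold with at least 20 UMIs over both libraries; other genes were named from the lists with at least 50 UMIs in the class, or as 1 of the 3 genes most correlated with a member, and marker and background genes to describe clusters after their values were seen. UMIs of 1 cell are not independent, which the intervals do not cover. Members, lists and markers were chosen with earlier results of these data known. With 1 library per group no replicate error exists.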

Additional observations from a re-analysis of the deposited data

Results flagged for a closer look

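For 6 members the log2 ratio of sgCPT1A over sgVC had opposite signs in a pair of classes, and the difference between the classes was not tested, since each group had 1 library. S100a8 stood at -0.48 in neutrophil-like and 3.19 in T-like cells, and S100a9 at -0.52 and 2.91 in the same classes. S100a4 stood at -1.69 in neutrophil-like cells, where it had 52 sgCPT1A and 34 sgVC UMIs, and at 0.68 in dendritic-like cells. The remaining 3 pairs set neutrophil-like cells against pericyte or smooth muscle-like cells: S100a6 stood at -1.29 and 0.12, S100a11 at -0.54 and 0.40, and S100a13 at -1.65 and 0.47. In these last 3 pairs the pericyte or smooth muscle-like ratios changed with the weighting of cells, and the part of depth was not tested. With cells of at least 1000 UMIs weighted equally, these ratios were -0.03 for S100a6, -0.08 for S100a11 and 0.05 for S100a13. Over a pair of draws that thinned each cell to 1000 UMIs they were -0.19 and 0.22 for S100a6, -0.66 and -0.25 for S100a11, and 0.69 and -0.74 for S100a13.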

How the results depend on the processing

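No paired analysis was possible because each group had 1 library with counts. The mean alarmin log2 ratio in neutrophil-like cells (-0.50) was -0.55 with at least 500 genes per cell, -0.073 with each library clustered alone, -0.39 after thinning to 1000 UMIs, -0.53 with member UMIs left out of the total, -0.42 with cells weighted equally, -0.55 with free RNA subtracted, -0.20 relative to the median gene and -0.24 in cluster 1 alone. The median of the broadly held members was in neutrophil-like cells (-1.65) -2.26 with each library clustered alone, -1.21 after thinning and -0.73 in cluster 1 alone. In monocyte/macrophage-like, dendritic-like, T-like, fibroblast-like and pericyte or smooth muscle-like cells it was -0.33, -0.37, -0.55, -0.62 and -0.25 after thinning, -0.42, -0.23, -0.50, -0.59 and -0.078 with cells weighted equally, and 0.19, -0.015, -0.23, -0.25 and 0.42 with free RNA subtracted. In fibroblast-like cells it was -0.47 with each library clustered alone and -0.83 with called doublets kept.

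The S100a8 bound on free RNA in T-like cells was, in sgCPT1A and sgVC, 10.1% and 13.8%; it was 9.17% and 8.89% with cells weighted equally, 8.50% and 0.798% from the composition of the shallowest 10% of cells, 0.882% and 0% without the top 5% of cells by S100a8, and 0.730% and 2.27% without cells of at least 20 alarmin UMIs. With other genes in its place it was 12.6% and 19.4% (G0s2), 9.38% and 15.9% (Csf3r), 14.3% and 145.8% (Il1r2, too high to serve as a bound), 2.87% and 4.16% (Retnlg) and 9.03% and 21.2% (Cxcr2), and in sgVC 18.8% (S100a9). In sgVC it was 16.9% with at least 500 genes, 7.35% after thinning and 30.0% with doublets kept, and in sgCPT1A 10.6% with each library clustered alone.

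In fibroblast-like cells the bound was 2.76% in sgCPT1A and 7.41% in sgVC; it was 2.99% and 10.1% with each library clustered alone, 3.07% and 3.95% after thinning, 3.2% and 6.26% with cells weighted equally, 2.33% and 0.429% from the shallowest cells, 0.385% and 0.476% without the top 5% of cells, 0.302% and 1.27% without cells of at least 20 alarmin UMIs, 3.35% and 10.5% (Csf3r), 13.2% and 112.3% (Il1r2) and 2.51% and 0.581% (Retnlg). In sgCPT1A it was 3.19% (G0s2), 2.91% (S100a9) and 2.50% with at most 10% mitochondrial UMIs, and in sgVC 0% (Cxcr2) and 8.65% with at least 500 genes.

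S100a8 in dendritic-like cells was 0.03 with free RNA subtracted at the T-like bound, most of which came from few cells with many alarmin UMIs. In monocyte/macrophage-like cells S100a8 changed sign to -0.53 with the same subtraction. Of 500 member ratios under the alternatives, 342 stayed within the counting interval of the main value and 158 left it; 21 changed sign, of which 1, this S100a8 ratio, was past 1.5-fold in the main setting; of 889 levels, 598 stayed and 291 left it. The broadly held median of neutrophil-like cells had no value with free RNA subtracted, and classes under 50 cells in a library had none under some cell filters and clusterings. Leaving out cells by alarmin UMIs, using cluster 1 alone and comparing thinning draws were chosen after seeing the data. With genes of at least 1 UMI the background in neutrophil-like cells was 37.8% higher and 34.4% lower, and with at least 50 UMIs 15.7% and 33.3%. At 1 UMI the share higher was 23.6% in monocyte/macrophage-like, 25.2% in dendritic-like, 28.3% in T-like, 32.2% in fibroblast-like and 36.7% in pericyte or smooth muscle-like cells, and the share lower was 32.3% in dendritic-like and 21.3% in T-like cells. Apart from subtraction, the causes of these changes were not tested.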
